A study of Mus musculus with 12 samples.

Results

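The 7 genes described here encode proteins that have been tied to anergy, a state in which a T cell no longer responds to antigen. They were chosen by name, with their estimated counts and TPM summed over transcripts, and are 7 of 45321 genes with a transcript in the deposited tables. Rnf128 (also called GRAIL), Cblb, Itch and Nedd4 are E3 ubiquitin ligases, which mark signalling proteins for degradation or rerouting. Dgka and Dgkz are diacylglycerol kinases, which turn the second messenger diacylglycerol into phosphatidic acid. Nrn1 encodes neuritin, a small membrane-anchored protein found on anergic and regulatory T cells.

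Calcium entry without costimulation is the classical route to anergy in CD4 T cells. The phosphatase calcineurin then sends NFAT factors to the nucleus without their AP-1 partners, and the ligase and kinase genes are among those switched on in the hours and days that follow. In quiescent T cells Dgka is kept high, in mouse by FoxO factors, and it falls when the cells are activated, which leaves more diacylglycerol for the Ras activator Rasgrp1 and for protein kinase C.

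The libraries come from CD4+ T cells of C57BL/6 mouse spleen, purified without touching the CD4 cells themselves, in 4 groups of 3. Cells had 1 h with 1 µM cyclosporin A (CsA), an inhibitor of calcineurin, or with its vehicle ethanol. They were then stimulated for 2 h with 10 nM phorbol 12-myristate 13-acetate (PMA), which imitates diacylglycerol, together with 1 µM ionomycin, which lets calcium in, or were left unstimulated. The groups are thus CsA stimulated, vehicle stimulated, CsA unstimulated and vehicle unstimulated. PMA plus ionomycin bypasses the receptor and supplies both signals, so this is a short activation and not an anergy protocol. The labels do not say whether replicates were separate animals or a pool, so each p-value speaks only of library-to-library spread, part or all of which may be technical.

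Libraries held 10523816 to 18468044 estimated counts. Replicate 2 of CsA stimulated stood apart from its group for Nrn1 and Dgkz, and it was also the lowest of its group for Cblb. For these genes it lay within the range of the unstimulated libraries. It did not stand apart for Rnf128 or Dgka. For Dgka the CsA stimulated and unstimulated groups lay close together, so a library at the unstimulated level would hardly stand out there. This replicate is given separately: results that use it come from all 12 libraries and again from the other 11. T cell markers, Cd4 among them, were present in every library. Their sum over 7 genes was 2358 to 4693 CPM (counts relative to library size, after TMM scaling). Cd4 alone had 198 to 448 CPM, and 5 CD8 T or NK cell markers summed to 75.0 to 140 CPM. The sum of 6 B cell markers was 371 to 949 CPM in the libraries numbered 2, one in each group, and 68.9 to 151 CPM in those numbered 1 and 3. For 6 myeloid and dendritic markers these ranges were 160 to 183 CPM and 27.2 to 50.2 CPM. Among the libraries numbered 2, the B cell sum was 949 CPM in CsA stimulated and 371 CPM in vehicle stimulated. It was 923 CPM in CsA unstimulated 2 and 924 CPM in vehicle unstimulated 2, so CsA stimulated 2 was near the unstimulated level here too. With CsA stimulated 2 left out, that group has no library numbered 2: the median log2 difference of the B cell and the myeloid markers between CsA and vehicle in stimulated cells was then −1.23 and −1.83, and 0.69 and −0.11 with all 12, with 0 of 6 called in each. The part of these cells in the results below was not tested. Fits of the 11 libraries with the replicate number as a block are called block fits below. In such bulk samples, fewer cells of a type and less RNA per cell cannot be told apart.

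All 7 genes passed the filter on low counts. In vehicle unstimulated cells Dgka was by far the most abundant on the length-corrected TPM scale, at 466 ± 17.9 TPM (mean ± SD, n = 3). Cblb followed at 66.9 ± 9.34 TPM, then Dgkz at 46.9 ± 17.6 TPM and Itch at 46.9 ± 11.2 TPM, and these last 2 do not differ beyond their spread. The range of Dgkz in vehicle unstimulated libraries, 26.8 to 59.5 TPM, and that of Itch, 37.1 to 59.1 TPM, ended just below the lowest Cblb library at 59.8 TPM. Nrn1 had 6.53 ± 2.38 TPM, Rnf128 4.81 ± 1.15 TPM and Nedd4 4.27 ± 1.59 TPM, which do not differ beyond their spread.

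The sequences below are the 250 bases before the start site of Dgka and Rnf128, shown because these are the members whose response to stimulation differed with CsA. RefSeq on GRCm38.p6, the same assembly as mm10, gives the Dgka window as chr10:128744077-128744326 on the minus strand and the Rnf128 window as chrX:139610370-139610619 on the plus strand. The start sites lie 1 base and 0 bases from the start of the transcript that carries most of each gene's counts here. Capitals mark the core of the NFAT binding motif, GGAAA, or its reverse complement TTTCC.
Dgka: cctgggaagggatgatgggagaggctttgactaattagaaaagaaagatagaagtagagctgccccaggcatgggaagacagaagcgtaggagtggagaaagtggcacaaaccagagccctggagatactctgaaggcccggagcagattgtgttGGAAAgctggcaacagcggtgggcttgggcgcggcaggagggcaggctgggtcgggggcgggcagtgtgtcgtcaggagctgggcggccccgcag
Rnf128: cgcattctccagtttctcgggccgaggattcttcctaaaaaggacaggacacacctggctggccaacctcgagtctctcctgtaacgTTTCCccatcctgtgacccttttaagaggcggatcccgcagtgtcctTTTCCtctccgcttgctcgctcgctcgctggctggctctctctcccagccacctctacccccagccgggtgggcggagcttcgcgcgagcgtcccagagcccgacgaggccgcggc
Searched on both strands, the Dgka window holds 1 such core, with its first base 95 bases before the start site. The Rnf128 window holds 2, at 163 and 116 bases before it, both on the reverse strand. A core of this length was found in 55.6% of 32851 windows of the same size. The AP-1 motif TGANTCA (in 6.75% of windows), the forkhead motif TGTTTAC (in 3.17%) and the Egr motif GCGNGGGCG (in 4.7%) matched neither window. These are letter matches and do not show binding. Among the other members only Nedd4 has a RefSeq window at the start of its main transcript, and it holds no GGAAA core.

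Dgka showed the clearest pattern of the 7. It encodes diacylglycerol kinase alpha (ENSMUSG00000025357) and lies on chromosome 10 from 128720134 to 128744855, minus strand, on mm10. Stimulation brought it to 272, 265 and 293 CPM in vehicle-treated cells, against 821, 819 and 779 CPM in vehicle unstimulated cells. With CsA present the stimulated libraries held 904, 858 and 980 CPM, against 842, 688 and 763 CPM in CsA unstimulated cells. The vehicle stimulated libraries were thus far below all others, and the 3 CsA stimulated ones, replicate 2 included, lay above every unstimulated library on this scale. In TPM the CsA stimulated range, 361 to 493, overlapped those of CsA unstimulated (350 to 470) and vehicle unstimulated (453 to 486) libraries.

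In vehicle-treated cells Dgka fell by 1.54 ± 0.16 on the log2 scale (SE; edgeR quasi-likelihood test, Benjamini-Hochberg adjusted p = 1.62e-05 over 14398 genes), to 0.343 of the unstimulated level. In stimulated cells it was higher with CsA than with vehicle by 1.73 ± 0.16 (edgeR adjusted p = 1.64e-05), a 3.31-fold difference. Stimulation under CsA gave 0.26 ± 0.15, which was not called (edgeR adjusted p = 0.309; 95% interval −0.07 to 0.59). The difference between the stimulation effects with CsA and with vehicle was 1.80 ± 0.22 (edgeR adjusted p = 0.000608). Without CsA stimulated 2 it was 1.88 ± 0.20 (1.85 in the block fit), and no single further library removed this call. The tables list 1 transcript of Dgka, so nothing can be said of its isoforms. Its exons share 105 bases with Pmel on the other strand, which had at most 186 counts against at least 2278 of Dgka.

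**Figure D1:**
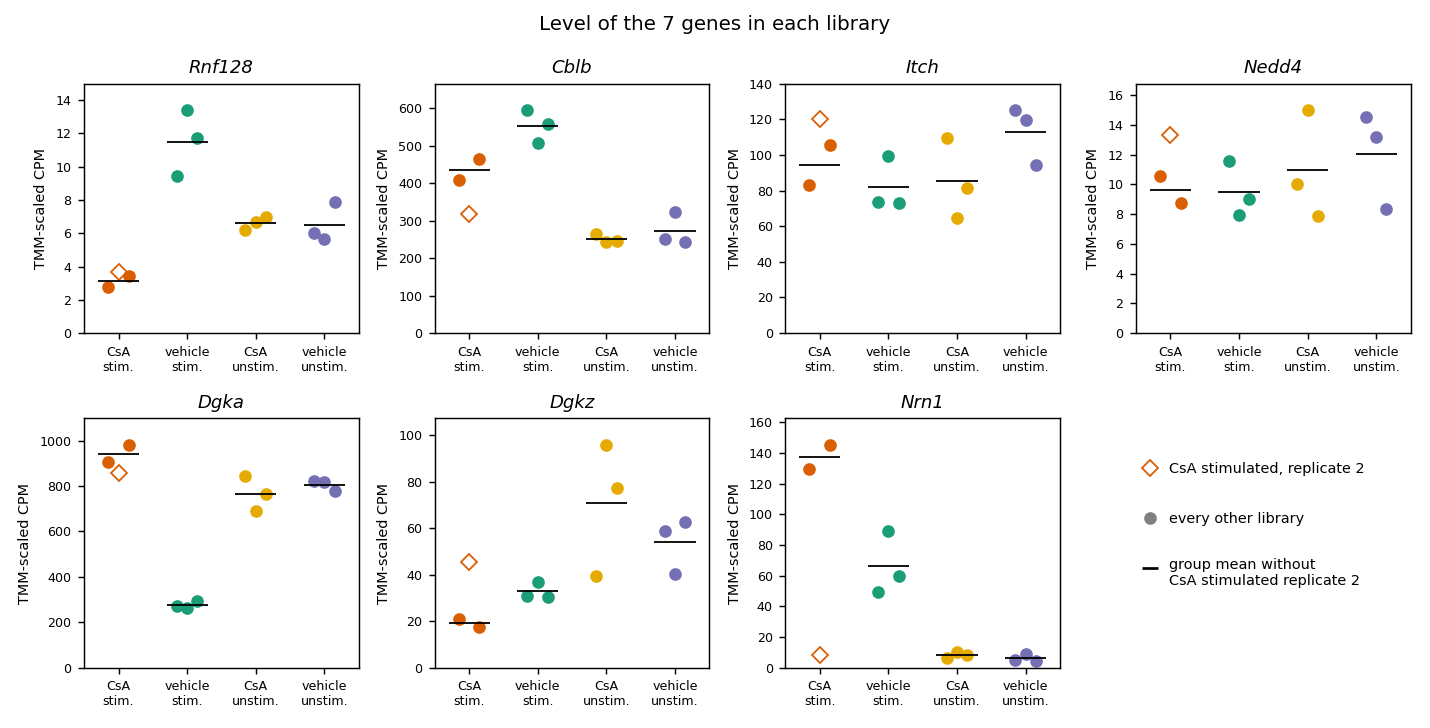
TMM-scaled CPM (vertical axes, from 0) of each gene in each of the 12 libraries, by group, with horizontal lines at group means without replicate 2 of CsA stimulated (open diamond). Dgka is low only in vehicle stimulated cells (265 to 293 CPM), Rnf128 is lowest in CsA stimulated cells (2.78 to 3.69 CPM), and Nrn1 is at 8.60 CPM in the diamond against 130 and 145 CPM in the other CsA stimulated libraries.

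Dgkz, the zeta kinase (ENSMUSG00000040479, chromosome 2 from 91932824 to 91975864, minus strand), did not follow Dgka. It had 20.9 and 17.6 CPM in CsA stimulated 1 and 3 and 45.3 CPM in CsA stimulated 2. Vehicle stimulated libraries held 31.0, 37.0 and 30.6 CPM, CsA unstimulated ones 39.3, 95.7 and 77.1 CPM, and vehicle unstimulated ones 58.7, 40.3 and 62.8 CPM. CsA stimulated 1 and 3 were therefore the lowest libraries of all, below every vehicle stimulated one.

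With all 12 libraries edgeR called Dgkz in no comparison; DESeq2 called it for stimulation under CsA (−1.33). Without CsA stimulated 2, Dgkz fell by 1.88 ± 0.32 on the log2 scale with stimulation under CsA (edgeR adjusted p = 0.000836; −1.79 ± 0.34 in the block fit), a call that no single further library removed. In vehicle it fell by 0.77 ± 0.27 (edgeR adjusted p = 0.0336; −0.79 in the block fit), and 7 of 11 further omissions ended that call. CsA in stimulated cells gave −0.73 ± 0.31 (edgeR adjusted p = 0.12; −0.66 in the block fit), with a 95% interval of −1.40 to −0.05. The difference of the stimulation effects was −1.11 ± 0.41 (edgeR adjusted p = 0.102; −1.003 in the block fit). That of Dgka had the opposite sign and was called. With all 12 libraries CsA in stimulated cells gave −0.23 ± 0.37 for Dgkz (edgeR adjusted p = 0.721), with a 95% interval of −1.04 to 0.58. The difference of the stimulation effects was then −0.62 ± 0.52 (edgeR adjusted p = 0.523). Stimulation gave −0.715 ± 0.37 in vehicle (edgeR adjusted p = 0.15) and −1.33 ± 0.38 under CsA (edgeR adjusted p = 0.058).

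The Dgkz counts were spread over 13 transcripts. The largest share, 55.9% on average, went to Dgkz-212, which the annotation classes as a target of nonsense-mediated decay, and Dgkz-201 held 17.4%. Coding transcripts held 20.5%, 31.7% and 56.9% in CsA stimulated, 53.7%, 34.4% and 4.66% in vehicle stimulated, 28.5%, 8.95% and 8.49% in CsA unstimulated and 30.3%, 44.3% and 12.4% in vehicle unstimulated libraries. Replicates of 1 group differed as much as the groups did, so a change in coding Dgkz cannot be read from these estimates.

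Rnf128 (ENSMUSG00000031438, chromosome X from 139563316 to 139673145, plus strand) was the 1 ligase of the 4 that edgeR called for CsA in stimulated cells; DESeq2 also called Cblb, at −0.47. GRAIL, its protein, is a membrane-bound ligase of endosomes, named for its link to anergy. Counts were low, 35 to 138 per library. Levels were 2.78, 3.69 and 3.43 CPM in CsA stimulated libraries, against 9.41, 13.4 and 11.7 CPM in vehicle stimulated ones. Unstimulated libraries lay between, at 6.22, 6.66 and 6.97 CPM with CsA and 6.04, 5.66 and 7.86 CPM with vehicle. On the CPM scale every CsA stimulated library, replicate 2 included, was below every unstimulated one, and every vehicle stimulated library was above them.

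Rnf128 was lower with CsA in stimulated cells, at −1.80 ± 0.26 on the log2 scale (edgeR adjusted p = 0.000372), or −1.86 ± 0.29 without CsA stimulated 2 (edgeR adjusted p = 0.000532; −1.85 in the block fit). In vehicle-treated cells stimulation raised it by 0.82 ± 0.25 (edgeR adjusted p = 0.0199), and under CsA it fell, with a value of −1.002 ± 0.26 (edgeR adjusted p = 0.0463), or −1.12 ± 0.29 (edgeR adjusted p = 0.0104) from 11 libraries and −1.12 in the block fit. The difference of the 2 stimulation effects was −1.82 ± 0.36 (edgeR adjusted p = 0.00757); from log2(TPM + 1) it was −1.06 and not called by limma. The rise in vehicle depends on the scaling: it was 0.21 with library totals and 0.17 from log2(TPM + 1), neither of them called, and TPM ranged over 4.17 to 7.46 in vehicle stimulated and 4.09 to 6.14 in vehicle unstimulated libraries. That call also ended without vehicle stimulated 2 or 3 or vehicle unstimulated 1 or 2 (0.69, 0.80, 0.70 and 0.72), and the call under CsA ended in 11 of 12 fits that left out 1 library. The transcript Rnf128-201 held 92.1% of the counts, and the one that starts farther upstream had no count in any library.

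Cblb (ENSMUSG00000022637, chromosome 16 from 52031225 to 52208048, plus strand) was the most abundant ligase. Cbl-b sets the need for CD28 costimulation by acting on phosphatidylinositol 3-kinase and phospholipase C gamma. It reached 409, 317 and 464 CPM in CsA stimulated libraries, 594, 507 and 559 CPM in vehicle stimulated ones, 263, 244 and 247 CPM in CsA unstimulated ones and 252, 324 and 242 CPM in vehicle unstimulated ones. All stimulated libraries but CsA stimulated 2 lay above all unstimulated ones.

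In vehicle-treated cells Cblb rose by 1.02 ± 0.18 on the log2 scale (edgeR adjusted p = 0.000898). Under CsA the effect of stimulation was 0.66 ± 0.18 (edgeR adjusted p = 0.0535), and 0.77 ± 0.16 from 11 libraries, where it was called (edgeR adjusted p = 0.00307; 0.78 ± 0.16 in the block fit, adjusted p = 0.00273). CsA in stimulated cells gave −0.48 ± 0.18 (edgeR adjusted p = 0.0755), or −0.31 ± 0.16 without CsA stimulated 2 (edgeR adjusted p = 0.22; −0.29 in the block fit; 95% interval −0.66 to 0.05). The rise in vehicle was 0.42 with library totals, where it was still called.

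Itch and Nedd4 are ligases of the HECT type. In mouse T cells Itch acts on JunB, and both have been tied to the loss of phospholipase C gamma and protein kinase C theta in anergy. Itch (ENSMUSG00000027598, chromosome 2 from 155133509 to 155226855, plus strand) had 83.0, 121 and 106 CPM in CsA stimulated, 73.8, 99.6 and 73.2 CPM in vehicle stimulated, 110, 64.5 and 81.5 CPM in CsA unstimulated and 125, 120 and 94.2 CPM in vehicle unstimulated libraries. Nedd4 (ENSMUSG00000032216, chromosome 9 from 72662346 to 72749852, plus strand) was at 10.6, 13.3 and 8.72 CPM in CsA stimulated, 11.6, 7.96 and 8.99 CPM in vehicle stimulated, 10.03, 14.98 and 7.87 CPM in CsA unstimulated and 14.5, 13.2 and 8.33 CPM in vehicle unstimulated libraries. The groups of both genes overlapped, and edgeR called neither gene in any of the 5 comparisons, with 12 or 11 libraries. For stimulation in vehicle the 95% intervals were −0.94 to 0.03 for Itch and −1.01 to 0.33 for Nedd4, and for CsA in stimulated cells −0.16 to 0.81 and −0.48 to 0.87. Both were called lower on stimulation in vehicle with library totals (−1.06 and −0.95), a scaling that puts the median of all genes there at −0.63, beside −0.03 under TMM; limma on log2(TPM + 1) also called Itch lower, at −0.97. The transcript Itch-201 held 75.8% of Itch counts and Nedd4-201 held 88.4% of those of Nedd4. Itch transcripts with a retained intron held 10.9% to 22.0% of its counts per library.

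Nrn1 (ENSMUSG00000039114, chromosome 13 from 36725361 to 36735131, minus strand) showed the largest rise of the 7. Levels were 130 and 145 CPM in CsA stimulated 1 and 3 and 8.60 CPM in CsA stimulated 2. Vehicle stimulated libraries held 49.7, 89.5 and 60.1 CPM, CsA unstimulated ones 6.22, 10.5 and 8.55 CPM, and vehicle unstimulated ones 4.91, 8.96 and 4.66 CPM. CsA stimulated 1 and 3 were above all vehicle stimulated libraries, while CsA stimulated 2 was within the unstimulated range.

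Stimulation of vehicle-treated cells raised Nrn1 by 3.43 ± 0.81 on the log2 scale (edgeR adjusted p = 0.00683), or 3.37 ± 0.31 without CsA stimulated 2, which enters the shared spread. Under CsA it rose by 4.01 ± 0.33 from 11 libraries (edgeR adjusted p = 4.26e-06; 4.26 ± 0.19 in the block fit); with all 12 the value was 3.48 ± 0.80 (edgeR adjusted p = 0.0431). CsA raised it further in stimulated cells from 11 libraries, by 1.08 ± 0.30 (edgeR adjusted p = 0.0216), a 2.12-fold difference (1.36 ± 0.17 in the block fit), while all 12 gave 0.51 ± 0.73 (edgeR adjusted p = 0.681). That call also ended when vehicle stimulated 1 or 3 or either remaining CsA stimulated library was left out of the 11, with values of 0.87 to 1.33 over all such omissions. The difference of the stimulation effects, 0.64 ± 0.42 from 11 libraries, was not called (edgeR adjusted p = 0.403), and it was called at 0.89 ± 0.24 in the block fit (edgeR adjusted p = 0.0247). The transcript Nrn1-201 held 99.7% of its counts. Nrn1 exons share 501 bases with Fars2 on the other strand, which had 62 to 365 counts. Whether counting used strand is not given in the sources used here, so reads from that stretch cannot be assigned.

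**Figure D2:**
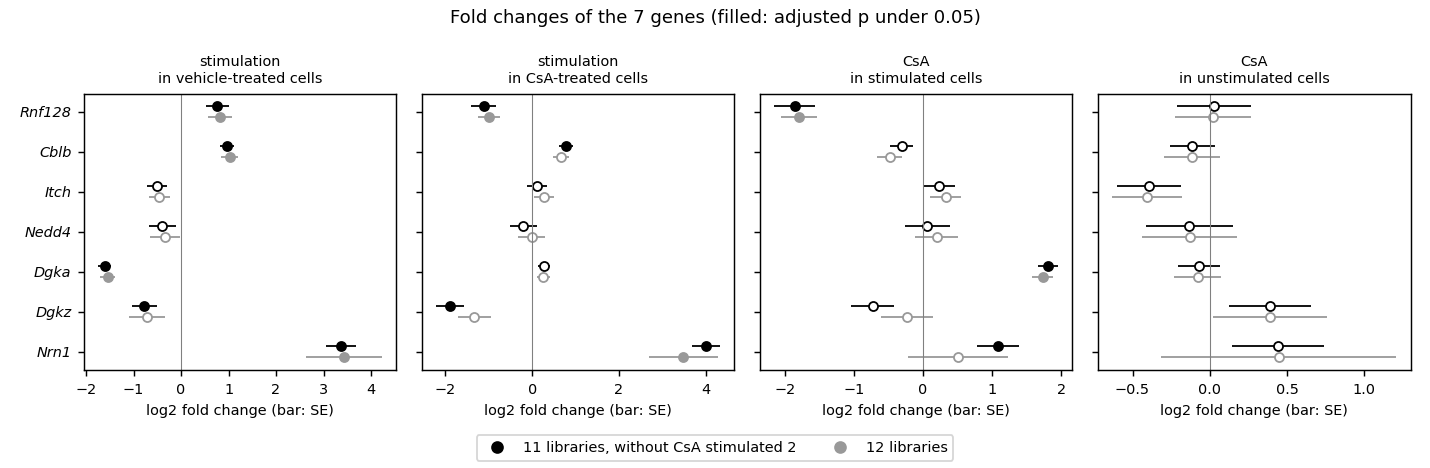
Log2 fold change with its SE (horizontal axis) of each gene (rows) in 4 comparisons, from 11 libraries without CsA stimulated 2 (black) and from all 12 (grey), filled where the adjusted p is under 0.05. In stimulated cells CsA gave 1.73 for Dgka and −1.80 for Rnf128 from 12 libraries, and no gene is filled in the panel of unstimulated cells.

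Counted together, 3 of the 7 genes rose with stimulation in vehicle (Rnf128, Cblb, Nrn1), beside 20.1% of all genes tested, and 1 fell (Dgka), beside 19.7%. From 11 libraries the counts were 3 higher, beside 20.8%, and 2 lower with Dgkz, beside 22.9%. The median of the 7 was −0.34 with 12 libraries, against −0.03 over all genes, and −0.4 from 11, against −0.08. For CsA in stimulated cells 1 was higher (Dgka), beside 10.3%, and 1 lower (Rnf128), beside 12.7%. From 11 libraries 2 were higher with Nrn1, beside 10.4%, and 1 lower, beside 12.1%. The members' median there was 0.20 with 12 libraries, against 0.06 over all genes, and 0.06 from 11, against 0.05. Library totals turn the balance of all calls, to 1580 higher and 5437 lower for stimulation in vehicle (2892 and 2836 under TMM) and to 2870 higher and 1193 lower for CsA in stimulated cells (1485 and 1833).

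Of the 7, edgeR called 0 for CsA in unstimulated cells, beside 0.00695% of all genes with 12 libraries and 0.0465% with 11. DESeq2 also called 0 of them, and 0 had an unadjusted p under 0.05. Under CsA, stimulation called 1 higher (Nrn1), beside 3.9%, and 1 lower (Rnf128), beside 1.38%. From 11 libraries it called 2 higher (Cblb, Nrn1), beside 14.1%, and 2 lower (Rnf128, Dgkz), beside 14.6%. The interaction called Dgka higher, beside 3.54% of all genes, and Rnf128 lower, beside 6.19%; from 11 libraries these backgrounds were 5.08% and 7.31%. Comparisons that share a group share its libraries.

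**Figure D3:**
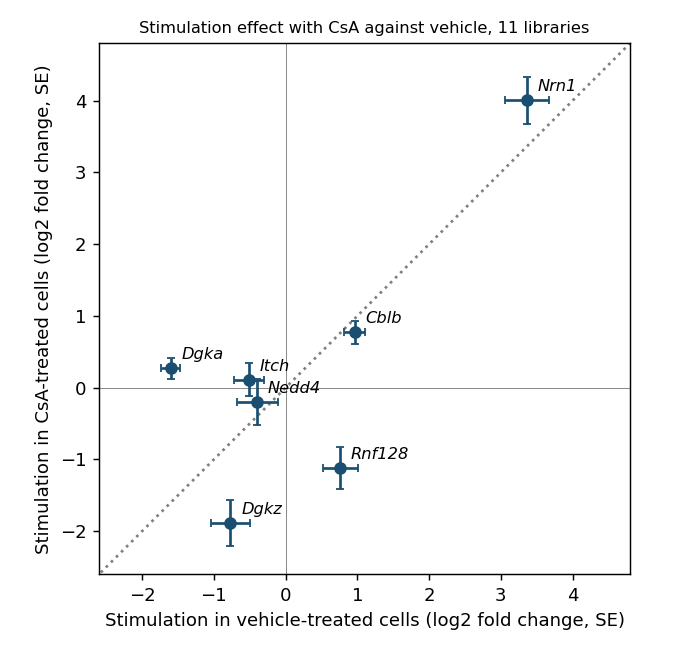
Log2 fold change on stimulation in CsA-treated cells (vertical) against vehicle-treated cells (horizontal) for each gene, from 11 libraries, with SE bars and a dotted line of equality. Cblb (0.77 and 0.96) lies near the line. Nrn1 (4.01 and 3.37) lies above it, by a difference of 0.64 ± 0.42 that was not called in this fit. Rnf128 (−1.12 and 0.76) was called in opposite directions, while Dgka (0.27 and −1.60) was called only for its fall in vehicle.

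Across the 11 libraries, each member was set against at least 8020 other genes that averaged 10 CPM or more. The genes closest to Dgka in log2(CPM + 1) were Spata13 (Pearson r = 0.995) and Dusp10, a MAP kinase phosphatase (0.993). Nrn1 was closest to Hivep1 (0.992) and Actg1, a cytoplasmic actin (0.988), Cblb to Aggf1 and Trmt61a (0.990 each), and Dgkz to Znrf2 (0.976) and Spast (0.954). Rnf128 was closest to Stk38l and Paip2b (0.968 each), Itch to Dpp8 (0.901) and Sacm1l (0.900), and Nedd4 to Bst2 (0.872) and Gm5148 (0.782). Over all 12 libraries the same pairs had r of 0.715 to 0.995. These correlations describe shared levels over 4 groups and carry no test.

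Genes that work beside the 7 were counted from 7 lists, with calls from all 12 libraries. Beside these counts, 20.1% of all genes tested were called higher and 19.7% lower with stimulation in vehicle. For CsA in stimulated cells the shares were 10.3% higher and 12.7% lower. A count near these shares says nothing particular of a list. Among the other diacylglycerol kinases, 5 of 8 were tested. Dgkd moved against Dgka in both comparisons: it rose with stimulation in vehicle (0.94 ± 0.23, edgeR adjusted p = 0.00675) and was lower with CsA in stimulated cells (−1.02 ± 0.23, edgeR adjusted p = 0.00739). Dgkq was higher with CsA there (0.85 ± 0.27, edgeR adjusted p = 0.0393), a call lost without CsA stimulated 2. The other 3 tested were not called in either comparison: Dgkh had 0.88 ± 0.34 with stimulation and −0.51 ± 0.34 with CsA, and Dgkg 0.28 ± 0.59 and −0.68 ± 0.60.

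Of 12 genes that make or read diacylglycerol, 3 rose and 2 fell with stimulation in vehicle, and 2 were higher and 2 lower with CsA in stimulated cells. Rasgrp2, an activator of the small GTPase Rap1, was at −2.02 with stimulation and 1.44 with CsA. Plcg1, which makes diacylglycerol, was at −1.24 and 0.92, signs that match those of Dgka. Prkch, protein kinase C eta, ran the other way at 1.80 and −2.44. Rasgrp1, the Ras activator, rose with stimulation by 1.07 and showed −0.05 ± 0.31 with CsA.

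The other ubiquitin ligases counted 2 higher and 2 lower of 11 with stimulation in vehicle and 2 lower with CsA in stimulated cells. Traf6 (1.48 and −1.09) and Peli1 (1.20 and −1.20) were called in both, while Smurf2 (−0.96) and Wwp1 (−0.82) were called for stimulation and not for CsA (0.33 and 0.52). Among 7 ligase adaptors and deubiquitinases, 4 rose and 1 fell with stimulation. Ndfip1, the adaptor that activates Itch and Nedd4, rose by 1.70 ± 0.24 and was lower with CsA in stimulated cells, at −1.98 ± 0.24 (edgeR adjusted p = 0.000128). Its relative Ndfip2 rose by 1.35 with stimulation and was not called for CsA (−0.57 ± 0.27). Tnfaip3, which encodes a ubiquitin-editing enzyme that restrains NF-kB signalling, rose by 1.501 ± 0.28 and was not called for CsA either (−0.62 ± 0.27, edgeR adjusted p = 0.131). Cyld, a deubiquitinase of NF-kB signalling, was at −1.46 and 0.83, the second value uncalled without CsA stimulated 2.

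**Figure D4:**
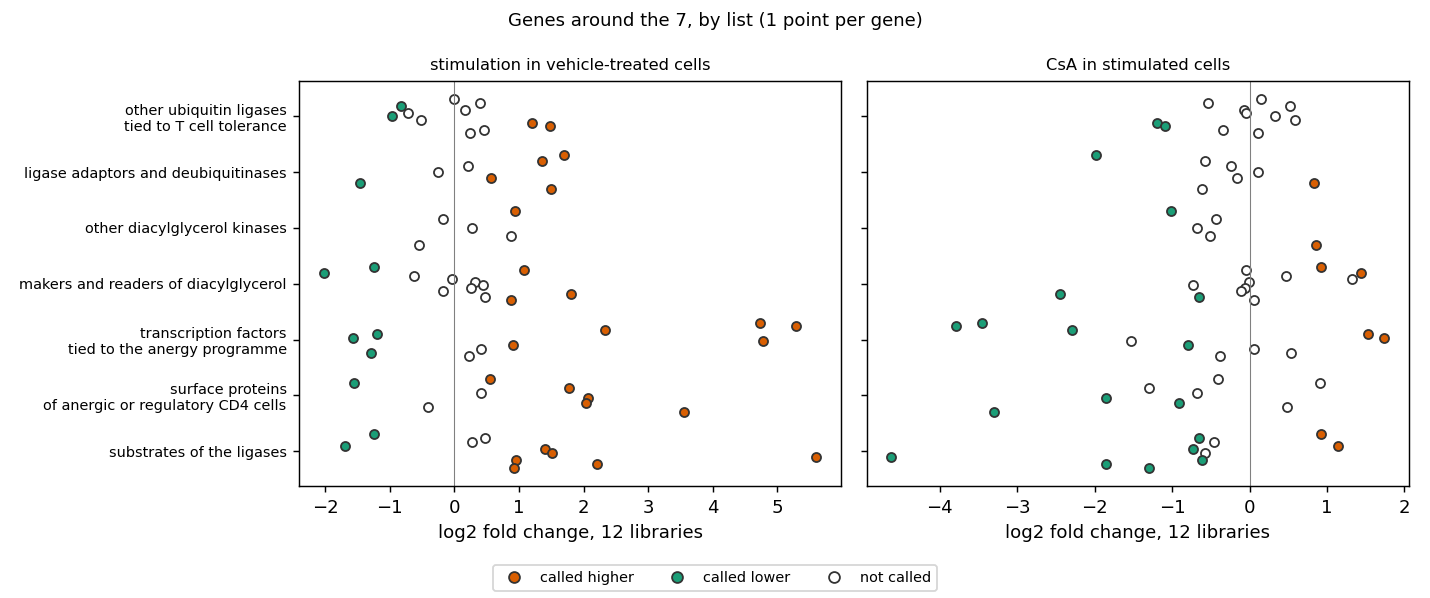
Log2 fold change (horizontal) of each tested gene of the 7 lists (rows), for stimulation in vehicle-treated cells on the left and CsA in stimulated cells on the right, from 12 libraries; colours give the call. Egr2 (4.73 and −3.46), Btla (3.55 and −3.30) and Cd40lg (5.603 and −4.62) are among the widest points on either side.

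Transcription factors tied to the anergy programme counted 5 higher and 3 lower of 10 with stimulation, and 2 higher and 4 lower with CsA in stimulated cells. Egr2 and Egr3, needed for full Cblb expression in anergic mouse T cells, were at 4.73 and 5.29 with stimulation and at −3.46 and −3.79 with CsA. From 11 libraries Egr2 was also lower with CsA in unstimulated cells (−3.001 ± 0.33, edgeR adjusted p = 0.00771), but with all 12 this was not called (−3.01 ± 0.51, edgeR adjusted p = 0.404), although the library left out is in neither group compared. Nr4a1, a nuclear receptor induced by antigen receptor signals, rose with stimulation (4.77 ± 0.77) and was not called for CsA in stimulated cells with 12 libraries (−1.53 ± 0.68, edgeR adjusted p = 0.133), while 11 gave a call at −0.96 ± 0.23 (edgeR adjusted p = 0.00956). Nfatc1 was at 2.33 and −2.30. Nfatc3, named outside the rule after its values were seen, was at −1.58 and 1.73, with signs opposite to those of the 4 factors named by the rule. Of 8 surface proteins of anergic or regulatory cells, 5 rose and 1 fell with stimulation and 3 were lower with CsA, among them Btla, Ctla4 (2.08 and −1.85) and Cd5 (2.03 and −0.91). Lag3, an inhibitory receptor, rose with stimulation (1.77 ± 0.54) and had −1.30 ± 0.53 with CsA, not called (edgeR adjusted p = 0.102). Substrates of the ligases counted 6 higher and 2 lower of 10 with stimulation. With CsA in stimulated cells they counted 2 higher and 6 lower, or 4 lower from 11 libraries, beside 12.1% of all genes. With CsA, Cd40lg, whose product helps B cells, was at −4.62 and Zap70, the kinase at the receptor, at −1.86, both called lower, while Pik3r1, a regulatory subunit of phosphatidylinositol 3-kinase, was called higher at 1.14. Junb, an AP-1 subunit and target of Itch, rose with stimulation (1.51 ± 0.31) and was not called for CsA (−0.57 ± 0.31, edgeR adjusted p = 0.211). Median changes of the 7 lists ranged from 0.16 to 1.16 with stimulation and from −0.80 to −0.03 with CsA, beside −0.03 and 0.06 over all genes.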

How the data were processed

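The submitters' processing notes name cutadapt, kallisto and the build mm10, without their roles; versions and transcript annotation are not given in the sources used here. Per the labels' protocols, libraries were made by SMART-seq. The deposited tables hold an estimated count for each transcript, not scaled for depth, and TPM, which the authors' run scaled for length and depth. Of 109617 transcripts, 108214 were matched by identifier to GENCODE M21 on mm10; the rest held 0.494% to 0.628% of counts and were left out. Estimated counts were summed per gene and rounded to whole numbers.

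Tests used edgeR 4.0.16 in R 4.3.3, with TMM scaling, a filter that takes the groups into account (at least 10 counts, and 15 in total) and robust quasi-likelihood fits over all genes, with 4 groups in 1 fit. Calls were made at a Benjamini-Hochberg adjusted p under 0.05. SE is the absolute log2 fold change over the square root of F, and 95% intervals use it. The script was tested on simulated data. A count of 0 would allow 0.162 to 0.285 CPM (3 counts; counting error only, since reads carry no molecular identifiers). Members, lists and tests were chosen with earlier results of these data known. Named genes are the 7 members, their 2 closest genes by correlation, transcripts with at least 10% of a member's counts, and the 4 largest changes per list with stimulation in vehicle; Nfatc3 is named besides. Alternatives were RLE scaling, library totals, no filter, DESeq2 1.42.0, limma 3.58.1 on log2(TPM + 1), a replicate block, 2 groups alone and each library left out.

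Equally numbered libraries deviated together from their group means, with correlations across genes of 0.211 to 0.423 between vehicle stimulated and unstimulated, 0.143 to 0.242 between the stimulated groups and 0.279 to 0.424 between the unstimulated groups. These numbers come from the labels, which do not say what is shared. Between the CsA groups the correlations were −0.01, 0.093 and 0.145. The main fits were unpaired.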

Additional observations from a re-analysis of the deposited data

Results flagged for a closer look

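The effect of stimulation differed with CsA for 2 of the 7 genes, by the test of the difference itself (edgeR, 4 groups in 1 fit). For Dgka the stimulation effect with CsA minus that in vehicle was 1.80 on the log2 scale with 12 libraries and 1.88 without CsA stimulated 2. For Rnf128 it was −1.82 with 12 libraries and −1.88 without CsA stimulated 2. Each value was still called by edgeR with any single library left out; from log2(TPM + 1) by limma that of Rnf128 was −1.06 and not called. Rnf128 rests on 35 to 138 counts per library.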

How the results depend on the processing

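Of the calls on the 7 genes, those for Dgka (stimulation in vehicle, CsA in stimulated cells, interaction) and for Rnf128 with CsA in stimulated cells held under every alternative run, and those for Cblb and Nrn1 with stimulation in vehicle did too. No called value reversed; 26 uncalled values changed sign. Stimulation under CsA was the least stable comparison: 760 genes and 2 members were called, against 0 and 0 with its 2 groups alone, 5 and 0 with library totals, 30 and 0 by limma, 2022 and 4 by DESeq2, and 598 and 0 with no filter. With the replicate block it gave 441 and 0, and without CsA stimulated 2 it gave 4831 and 4 with the block and 4906 and 4 with library totals. Equally numbered libraries did not all correlate positively there, and the block changed no other call on the members with 12 libraries. Leaving out 1 library each gave 0 to 4321 genes and 0 to 4 members there; the highest values were without CsA stimulated 2. CsA in unstimulated cells had 1 gene, against 20 by DESeq2, 0 by limma and 1 with library totals of all 12 libraries. Without CsA stimulated 2 it had 9 with library totals and 15 with the block. With 1 library left out it had 0 to 7. The interaction had 1400 genes, against 2120 by DESeq2 and 2274 with the block from 11 libraries, and 787 to 1865 with 1 library left out; its members called were 2, against 1 by limma. The cause of these shifts was not tested. Estimated counts of Rnf128 (35 to 138) limit precision, and TPM carries no depth.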
